A study of Mus musculus with 4 samples.

Results

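The comparison described here set the transcriptional response to ischemia in the core of a stroke against the response in its penumbra, gene by gene. It used all 4 samples of 4 in the series, each a two-color microarray on which RNA of ischemic tissue was labelled in one dye and RNA of its healthy counterpart in the other. The arrays named core 1 and core 2 held core tissue, and those named penumbra 3 and penumbra 4 held penumbra tissue. Ischemic RNA was in Cy5 on core 1 and penumbra 3 and in Cy3 on core 2 and penumbra 4, so each region was measured as a dye swap. All tissue came from male C57BL/6J mice aged 9 weeks. It was collected 6 h after the middle cerebral artery had been blocked for good by a filament inside the vessel, under sevoflurane, and the mice had received saline into a cerebral ventricle. The healthy tissues carry the same saline label, and whether that tissue was taken opposite the lesion or in separate mice is not stated. The labels give 3 mice per group without stating whether their RNA was pooled; samples given PACAP38, which the treatment protocol mentions, were not analysed here. No gene was preselected: every measured feature entered, and the quantity followed is the log2 ratio of ischemic to healthy tissue in the core minus the same ratio in the penumbra.

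When an artery of the brain is blocked, the core is the tissue that loses nearly all blood flow and dies first, and the penumbra around it keeps some flow from neighbouring vessels for a time. Injured brain cells release signals that pattern-recognition receptors on microglia and other myeloid cells detect, and NF-kappaB then drives chemokines, small proteins that draw monocytes and neutrophils out of the blood. Stressed neurons and glia also switch on immediate early genes and heat shock proteins, and heat shock factor binds the promoters of the latter. A difference of responses can arise on either side of the ratio: it equals the difference between the ischemic pieces minus the difference between the healthy pieces, and both are given below for each called gene and for most others described. In pieces of bulk tissue, fewer cells of a type and less RNA per cell cannot be told apart.

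A total of 25251 features, 13987 of them with a gene symbol, were well above background in both arrays of at least 1 of the 4 tissues. A difference was called when it reached 1 log2 unit, which is 2-fold, and the core arrays were both above, or both below, the penumbra arrays. A smaller call asked for 1.5-fold and the same separation. Each dye swap counts as 1 replicate, so there is no p-value across animals, and the errors given with differences are SDs over the 2 dye-matched values (core 1 minus penumbra 3, and core 2 minus penumbra 4). These SDs had a median of 0.07 log2, against 0.10 for the SD between the arrays of either region, and both cover the spread between arrays only. In each dye, 76.1% to 79.4% of spots exceeded background clearly, 0 spots were saturated, and all 4 arrays were on 1 slide. Measured against marker genes, the core piece was not the same kind of tissue as the penumbra piece even in health: the median level difference, healthy core minus healthy penumbra, was -1.67 log2 over 18 striatal markers, -2.79 over 16 choroid plexus and ependymal markers, -0.81 over 15 oligodendrocyte markers and 0.42 over 21 cortical markers. Over all features this median was 0.01.

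Few genes passed as responding differently between the regions, and chemokines made up most of those that were higher. Of 25251 features, 10 had a higher response in the core (0.0396%) and 5 a lower response (0.0198%). The 10 were the chemokines Ccl4, Cxcl1, Ccl2, Ccl12, Ccl3, Ccl7 and Cxcl2, the myeloid receptors Gpr84 and Cd14, and the small heat shock protein Hspb1. The 5 were Prkcd, Avp, Mrgprf and 2 features known only by accession. At 1.5-fold, 39 features were higher in the core (0.154%) and 71 lower (0.281%), and 28 of these had no symbol. The difference lay within 0.5 log2 of 0 for 99.2% of features, and its median was 0.01. The balance of directions depended on the signal correction: with the scanner software's processed signals, to which no offset is added, 93 features were higher and 86 lower, and normexp correction with an offset of 0 gave 28 higher and 28 lower. Leaving out an array, which undoes the dye balance of its region, moved these counts: 12 higher and 23 lower features were found when core 1 was dropped, and 17 and 8 when core 2 was dropped. With penumbra 3 dropped there were 13 higher and 11 lower, and with penumbra 4 dropped 13 and 17.

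**Figure D1:**
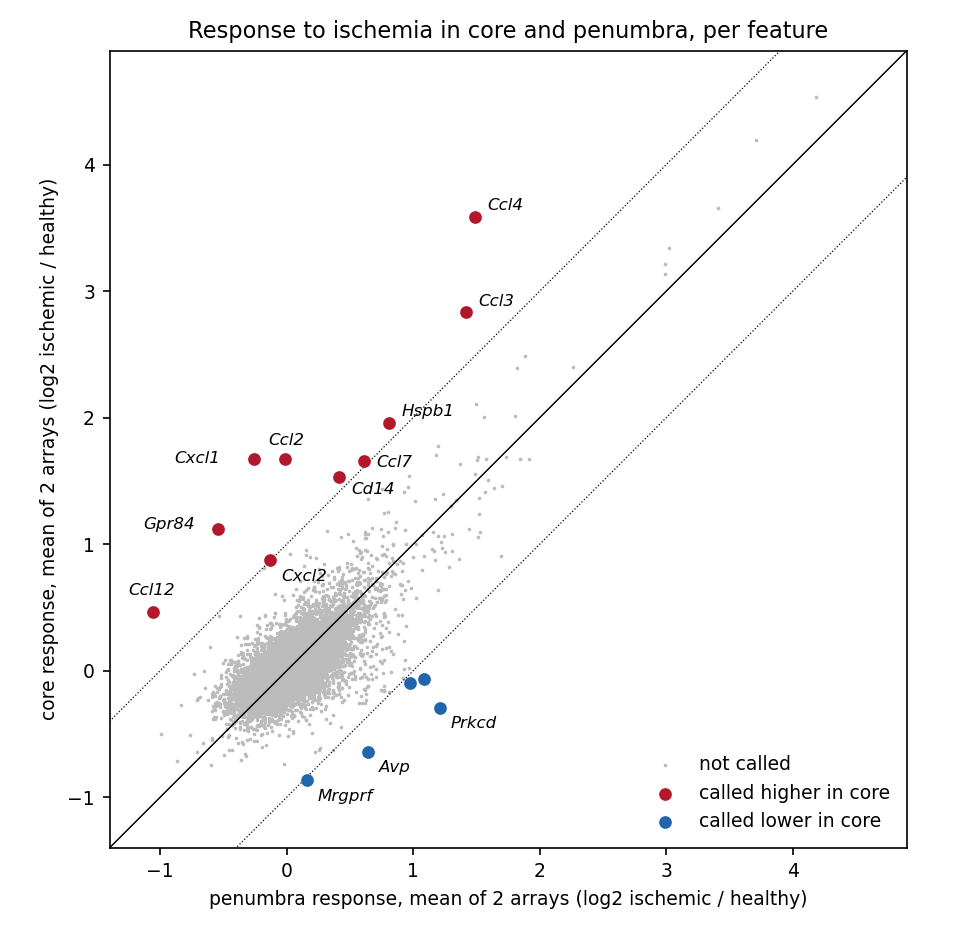
Response to ischemia in the core (vertical axis, mean log2 ratio of ischemic to healthy tissue over 2 arrays) against that in the penumbra (horizontal axis, the same) for each of 25251 features. Dotted lines mark a difference of 1 log2 unit; the 10 features called higher in the core lie above the upper line and the 5 called lower lie below the lower line, 2 of which have no gene symbol.

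In limma over the 4 arrays with a dye coefficient, which measures the spread between arrays only, the same 15 features passed a Benjamini-Hochberg adjusted p of 0.05 with at least 1 log2 unit, with adjusted p-values from 2.54e-08 to 1.85e-05. Without the size condition, 869 features higher and 918 lower passed that fit. Without the dye coefficient, limma left only Ccl4 and Cxcl1, each at an adjusted p of 0.0335, and 0 features lower; 1111 features then had an unadjusted p under 0.05.

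The CC chemokines, which attract mainly monocytes and other leukocytes, included the gene with the widest gap. Ccl4, made by activated myeloid cells, had log2 ratios of 3.60 and 3.57 on the core arrays and 1.56 and 1.42 on the penumbra arrays. It was thus raised in both regions, and the arrays of the regions did not overlap. Its response was higher in the core by 2.10 ± 0.08 log2, or 4.29-fold. That size depended on the signal correction: it was 2.69 with a normexp offset of 0 and 2.89 with processed signals. Ccl3, a macrophage inflammatory protein, had 2.84 and 2.83 in the core and 1.48 and 1.35 in the penumbra. The core arrays again lay clear of the penumbra arrays, and the difference was 1.42 ± 0.08.

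Ccl2, the main ligand of the monocyte receptor Ccr2, had log2 ratios of 1.82 and 1.52 on the core arrays and 0.13 and -0.17 on the penumbra arrays. The penumbra arrays therefore lay on either side of 0 while both core arrays were high, and the difference was 1.69 log2 with an SD of 0.00. Ccl7, another Ccr2 ligand, had 1.66 on each core array and 0.76 and 0.47 in the penumbra. Its difference was 1.05 ± 0.21, and its call ended without penumbra replicate 4 (0.90) and with the mean over its 2 probes (0.91). Ccl12, also a Ccr2 ligand and close in sequence to Ccl2, had 0.58 and 0.35 in the core and -0.97 and -1.13 in the penumbra. Its response therefore differed in sign between the regions, with a difference of 1.52 ± 0.05.

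**Figure D2:**
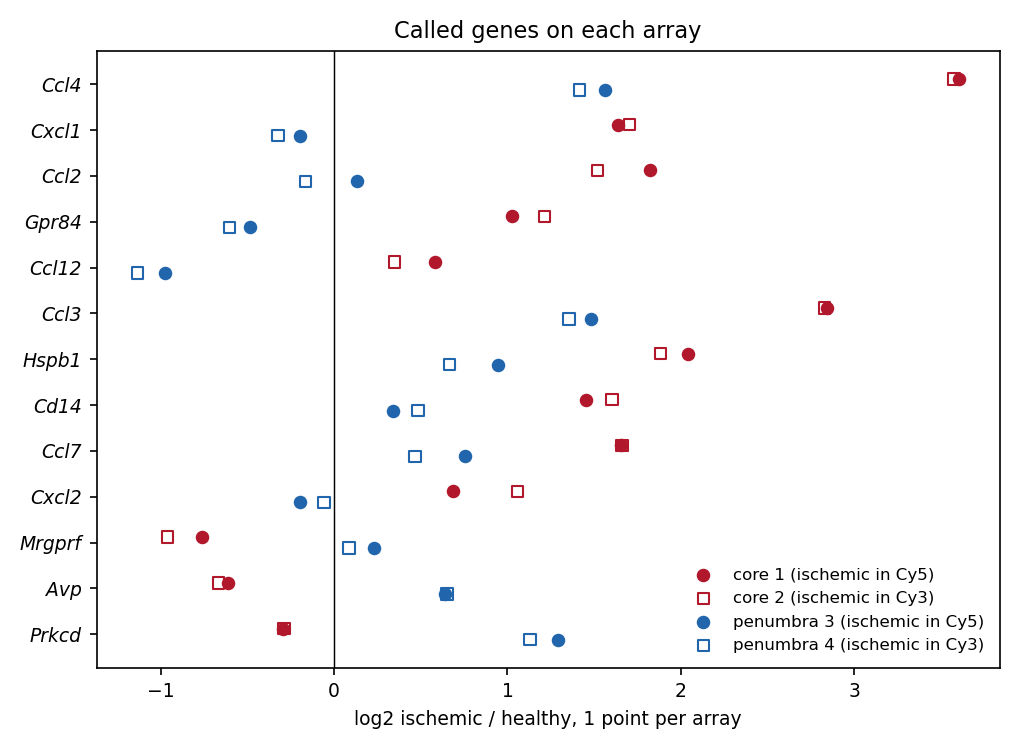
Log2 ratio of ischemic to healthy tissue on each of the 4 arrays for the 13 called genes with a symbol, 1 point per array; red points are core arrays and blue points penumbra arrays. For each gene the core points lie to 1 side of both penumbra points, and for Cxcl1, Cxcl2, Gpr84, Ccl12, Mrgprf, Avp and Prkcd the regions lie on opposite sides of 0.

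The CXC chemokines Cxcl1 and Cxcl2 attract neutrophils through Cxcr2. Cxcl1 had log2 ratios of 1.64 and 1.70 on the core arrays and -0.20 and -0.32 on the penumbra arrays. All core values were thus positive and all penumbra values negative, and the difference of 1.93 ± 0.13 (3.82-fold) was second to that of Ccl4. Cxcl2 had 0.69 and 1.06 in the core and -0.20 and -0.06 in the penumbra, a difference of 1.00 ± 0.16. Healthy core was not well above background for Cxcl2 on either array; against the lowest signal that was, the difference was at least 1.96-fold, which is 0.97 log2. The call of Cxcl2 also ended with median centring (0.94), with spike-in scaling (0.99), when core 2 was dropped (0.82) and when penumbra 3 was dropped (0.93), while processed signals gave 3.17.

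The promoters of Cxcl1 and Cxcl2 are printed because the genes moved together and NF-kappaB is the textbook regulator of both. RefSeq promoters (assembly GRCm38.p6) of 8 of the 13 called genes with a symbol were searched. Ccl2, Ccl4, Ccl7, Cd14 and Mrgprf were left out of this search, so the motif counts say nothing about them. Each sequence below is the 250 bases before the start, 5′ to 3′ on the + strand, at chr5:90890995-90891244 for Cxcl1 and chr5:90903649-90903898 for Cxcl2. Matches to the NF-kappaB consensus are in capitals.
Cxcl1: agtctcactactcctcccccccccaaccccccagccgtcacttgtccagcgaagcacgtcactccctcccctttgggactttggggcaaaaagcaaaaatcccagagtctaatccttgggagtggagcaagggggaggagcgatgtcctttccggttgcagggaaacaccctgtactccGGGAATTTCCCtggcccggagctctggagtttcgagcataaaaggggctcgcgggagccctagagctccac
Cxcl2: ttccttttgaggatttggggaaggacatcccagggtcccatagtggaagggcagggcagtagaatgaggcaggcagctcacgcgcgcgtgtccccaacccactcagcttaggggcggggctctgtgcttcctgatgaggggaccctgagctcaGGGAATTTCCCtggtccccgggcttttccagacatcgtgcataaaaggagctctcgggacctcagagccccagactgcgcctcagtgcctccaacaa
The 11 letters in capitals, GGGAATTTCCC, are the same in both. These letters join 2 overlapping matches, 1 on each strand. They lie 71 to 61 bases before the start in Cxcl1 and 97 to 87 bases before it in Cxcl2. The NF-kappaB consensus, searched on both strands, was in 2 of the 8 promoters, Cxcl1 and Cxcl2, and in 7.25% of 32851 promoters in the table. TGANTCA, the AP-1 pattern, was in 1 of 8 (Avp) and in 6.75% of all promoters, and the cAMP response element TGACGTCA was in 0 of 8 and 1.55%. A match describes letters in this window and does not show that a factor binds there.

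For most of the chemokines, the gap between the responses lay in the healthy pieces. Ischemic core and ischemic penumbra held similar levels of Ccl4, with core higher by 0.31 ± 0.13 log2 (SD between the dyes), whereas healthy core was lower than healthy penumbra, at -1.79 ± 0.04. For Ccl3 the ischemic pieces differed by 0.04 ± 0.02 and the healthy pieces by -1.37 ± 0.06. For Ccl12 they differed by -0.14 ± 0.10 and -1.66 ± 0.14. The same order held for Ccl2 (0.28 and -1.41), Cxcl1 (0.43 and -1.50), Ccl7 (0.34 and -0.71) and Cxcl2 (0.44 and -0.56), in each of which the healthy difference was the larger in size. For Ccl4, Ccl3, Ccl12 and Ccl2 the ischemic pieces thus differed by at most 0.31 in size, and each was less abundant in the healthy core piece than in the healthy penumbra piece. For Cxcl2 the parts were close in size, with healthy core near background. Among all 10 features called higher, the healthy part was the larger in 8 and lay below 0 in 10. Among the 39 at 1.5-fold, it was the larger in 23. Why healthy penumbra held more chemokine RNA was not tested.

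**Figure D3:**
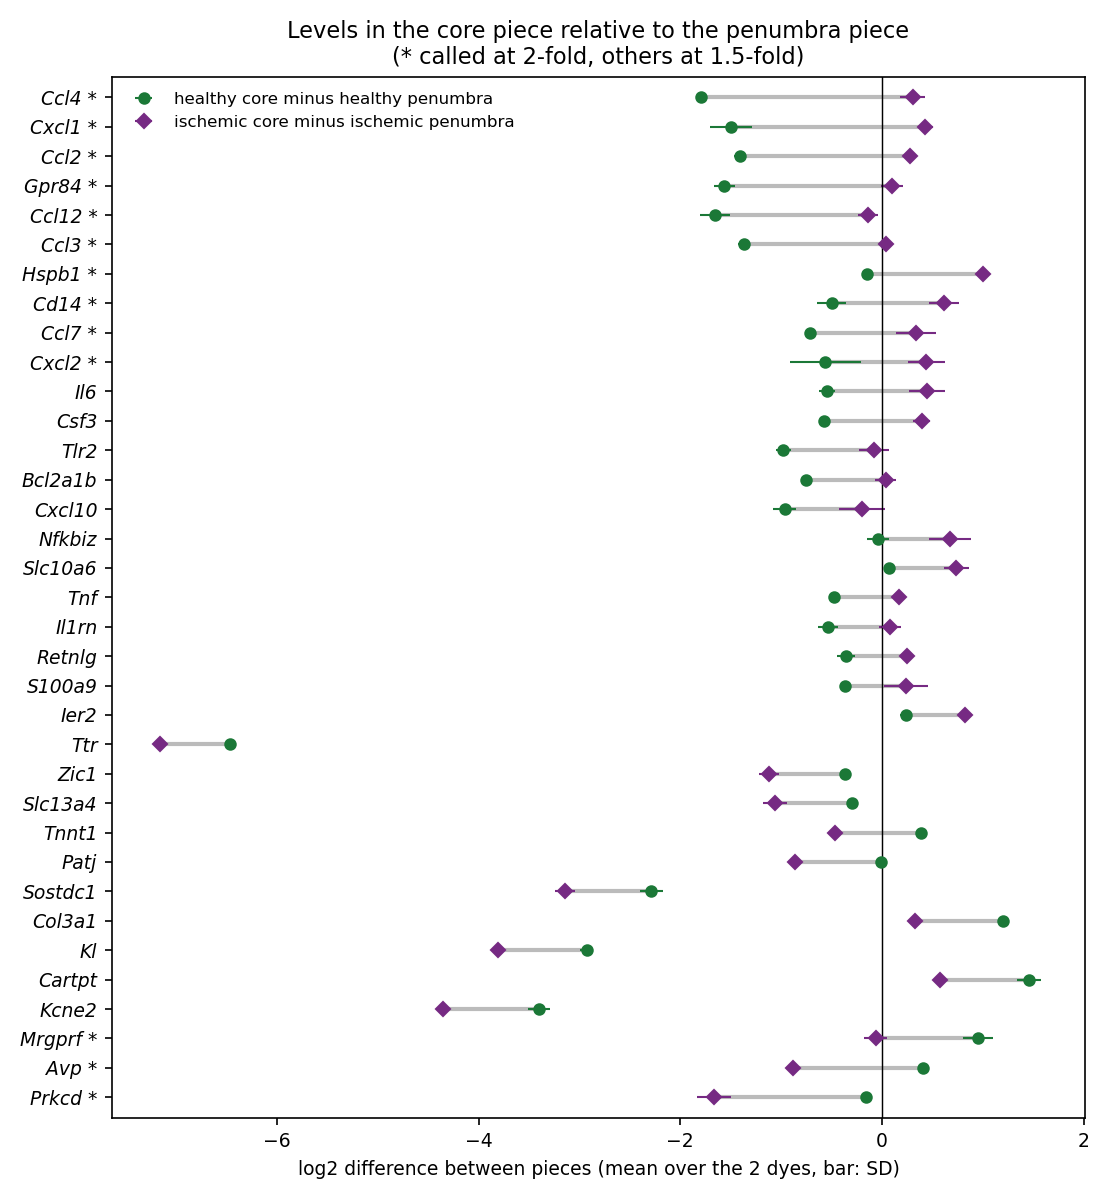
Level in the core piece minus level in the penumbra piece (log2, mean over the 2 dyes, bars SD) for healthy tissue (green circles) and ischemic tissue (purple diamonds), for named genes called at 2-fold (asterisk) or at 1.5-fold. The grey bar between the points is the difference of responses: for the top 6 genes, Ccl4 to Ccl3, healthy values run from -1.79 to -1.37 and ischemic values from -0.14 to 0.43, whereas for Hspb1 and Prkcd the healthy values are -0.15 and -0.16.

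The chemokine list held 25 genes, of which 24 were on the array and 20 were tested. Of these 20, 7 were called higher in the core, 10 passed at 1.5-fold and 15 had both core arrays above both penumbra arrays, while 0 had both below. Over all features, 15.7% were separated upwards in this way and 14.8% downwards. The list's median difference was 0.57, against 0.01 over all features, with a median response of 0.54 in the core and -0.03 in the penumbra. With processed signals the median difference was 1.21, and over all alternatives it ranged from 0.33 to 1.21. Besides the called genes, Cxcl10, an interferon-induced attractant of T cells, passed at 1.5-fold. It had 1.11 and 0.73 in the core and 0.26 and 0.04 in the penumbra, a difference of 0.77 ± 0.11 (1.45 with processed signals), and the ischemic pieces differed by -0.20 and the healthy ones by -0.96. The 5 members whose arrays overlapped between regions ran from -0.12 (Ccl8) to 0.22 (Cx3cl1, the neuronal ligand of the microglial receptor Cx3cr1). Chemokine receptors had 0 of 14 members called at either size, with a median difference of 0.07.

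Receptors by which myeloid cells sense damage were the other inflammatory group with called members. Gpr84, a receptor for medium-chain fatty acids that activated myeloid cells express, had log2 ratios of 1.03 and 1.21 in the core and -0.48 and -0.60 in the penumbra. Core and penumbra thus lay on opposite sides of 0, with a difference of 1.67 ± 0.22. Ischemic pieces differed by 0.10 ± 0.11 and healthy pieces by -1.56 ± 0.11, as for the chemokines. Cd14, the co-receptor of Tlr4 for lipopolysaccharide, had 1.45 and 1.60 in the core and 0.34 and 0.48 in the penumbra. It was above 0 on every array, with a difference of 1.11 ± 0.01 that came from both sides: core exceeded penumbra by 0.62 in ischemic tissue and fell short of it in healthy tissue, at -0.50.

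Tlr2, a Toll-like receptor for bacterial lipopeptides, had 0.97 and 0.88 in the core and -0.09 and 0.14 in the penumbra. The difference of 0.90 ± 0.22 (1.37 with processed signals) passed at 1.5-fold, with -0.08 between ischemic and -0.98 between healthy pieces. The remaining receptors did not pass: of 22 tested, 2 were called, 3 passed at 1.5-fold, and the median difference was 0.12. Tlr4 itself lay at -0.15. The markers that define microglia did not follow the called receptors. Over 19 of 19 microglia markers the median difference was -0.06, with 0 called at either size. Of these markers, 1 had both core arrays above both penumbra arrays and 6 had both below, against 15.7% and 14.8% of all features. Their healthy core minus healthy penumbra levels ran from -0.41 to 0.06 with a median of -0.09. Whether the number of microglia differed between the pieces was not tested.

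The cytokine list differed in the same direction, with a smaller median difference than the chemokine list. For the dim genes named here, the size of the gap depended on the signal correction. Il6, a cytokine of the acute phase response, had log2 ratios of 0.84 and 0.78 in the core and -0.22 and -0.14 in the penumbra, a difference of 0.99 ± 0.09. Csf3, the growth factor of granulocytes, had 0.35 and 0.51 in the core and -0.59 and -0.48 in the penumbra, a difference of 0.97 ± 0.03. In both genes every core array lay above 0 and every penumbra array below it. Processed signals gave 2.94 for Il6 and 2.86 for Csf3. The ischemic pieces differed by 0.45 and the healthy pieces by -0.54 for Il6, and by 0.39 and -0.57 for Csf3. Tnf, the inflammatory cytokine that activates endothelium, had 0.46 and 0.38 against -0.20 and -0.24, a difference of 0.64 ± 0.03, or 2.49 with processed signals. Its ischemic pieces differed by 0.17 and its healthy pieces by -0.47. Il1rn, the natural antagonist of the interleukin-1 receptor, had 0.61 ± 0.21 as measured, or 4.08 with processed signals. It was not well above background in healthy core or ischemic penumbra, and against the lowest signals that were, the difference was at least 1.37-fold, under the 1.5-fold size. Of 12 cytokines tested, 0 were called, 4 passed at 1.5-fold as measured (Il1rn among them), all higher in the core, and the median difference was 0.28. The median response of the list was 0.32 in the core, against -0.00 in the penumbra.

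NF-kappaB subunits and feedback genes had a smaller median difference than the chemokines. Nfkbiz, an inducible nuclear co-regulator needed for Il6 transcription, had log2 ratios of 1.42 and 1.30 in the core and 0.64 and 0.65 in the penumbra. It was above 0 on all arrays and higher in the core, by 0.72 ± 0.09. Unlike the chemokines, its gap lay in the ischemic pieces, at 0.68 ± 0.20, with the healthy pieces at -0.04 ± 0.11. Of 15 NF-kappaB subunits and feedback genes tested, 1 passed at 1.5-fold and 15 had a difference above 0, against 13316 of all 25251 features. Both core arrays lay above both penumbra arrays in 9 of the 15 and below them in 0, against 15.7% and 14.8% of all features. The median was 0.13, and Nfkbia, the classical inhibitor, lay at 0.08 with overlapping arrays. Bcl2a1b, a survival factor of the Bcl2 family in leukocytes, had a difference of 0.79 ± 0.12, from -0.75 between the healthy pieces and 0.04 between the ischemic ones. It has near-identical paralogs, so its own share of that signal is uncertain. Socs3, the feedback inhibitor of Stat3 signaling, had 0.92 and 0.90 in the core and 0.48 and 0.62 in the penumbra. Its difference of 0.36 ± 0.11 missed both sizes although the arrays were separated.

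Of 14 neutrophil markers tested of 17 listed, 3 were raised in the core and 3 in the penumbra (2-fold in the mean and 1.5-fold on each array). Over all features, 0.31% were raised in the core and 0.241% in the penumbra. S100a9, a calcium-binding alarmin stored in neutrophils, had log2 ratios of 2.45 and 2.53 in the core and 1.72 and 2.04 in the penumbra, a difference of 0.61 ± 0.18. Retnlg, a resistin-like protein of granulocytes, had 2.06 and 2.15 against 1.38 and 1.61, a difference of 0.61 ± 0.10. In both genes every array was well above 0 and the regions did not overlap. The healthy part was the larger in both: the ischemic pieces differed by 0.24 and the healthy ones by -0.37 for S100a9, and by 0.25 and -0.36 for Retnlg. Of the 14 markers, 0 were called, 2 passed at 1.5-fold, and 9 had both core arrays above both penumbra arrays, against 15.7% of all features. The median difference was 0.29, with a median response of 0.63 in the core and 0.35 in the penumbra. Monocyte and macrophage markers had 0 of 13 members called at either size and a median difference of -0.10. The list median lay at 0.09 for 11 T, B and NK cell markers.

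Hspb1 was the single stress protein among the called genes. It encodes a small heat shock protein that keeps unfolding proteins from aggregating. Its log2 ratios were 2.04 and 1.88 in the core and 0.95 and 0.67 in the penumbra. The ratio was above 0 on every array, and the core arrays stood clear of the penumbra arrays, with a difference of 1.16 ± 0.09. The gap lay in the ischemic tissue: ischemic core exceeded ischemic penumbra by 1.00 ± 0.06, while the healthy pieces differed by -0.15 ± 0.03.

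The Hspb1 promoter is shown because heat shock factor is the textbook regulator of the gene. It is the 250 bases before the start at chr5:135887669-135887918 on the + strand (RefSeq, GRCm38.p6), 5′ to 3′, with 2 matches to GAANNTTC, the core of a heat shock element, in capitals.
Hspb1: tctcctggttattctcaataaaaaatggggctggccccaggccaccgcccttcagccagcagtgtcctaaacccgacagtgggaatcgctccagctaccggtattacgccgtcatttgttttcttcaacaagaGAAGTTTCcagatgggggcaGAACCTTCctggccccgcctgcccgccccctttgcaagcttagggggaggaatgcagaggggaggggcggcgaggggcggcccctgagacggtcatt
The matches are GAAGTTTC, 117 to 110 bases before the start, and GAACCTTC, 97 to 90 bases before it. The pattern, which reads the same on both strands, was in 1 of the 8 promoters of called genes and in 6.69% of all promoters.

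No other heat shock gene passed at either size. The list held 27 tested heat shock proteins and co-chaperones, and their median difference was 0.05. The inducible chaperone Hspa1a had a difference of 0.36 and Hspa1b 0.25, each with arrays that overlapped between regions; the probes may not tell these near-identical genes apart. Dnajb1, the co-chaperone of inducible Hsp70, went the other way at -0.24 with separated arrays. Slc10a6, a sodium-dependent transporter of sulfated steroids, differed as Hspb1 did. Its core ratios of 1.04 and 0.75 exceeded its penumbra ratios of 0.28 and 0.17 by 0.67 ± 0.12, with 0.74 between the ischemic pieces and 0.07 between the healthy ones.

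The largest difference in the opposite direction was that of Prkcd, a protein kinase C isoform abundant in thalamic relay neurons. It had log2 ratios of -0.29 on each core array and of 1.29 and 1.13 on the penumbra arrays. Ischemic penumbra thus held more Prkcd RNA than healthy penumbra, with no such gain in the core, and the difference was -1.50 ± 0.12. The healthy pieces were close, at -0.16 ± 0.05, and the ischemic pieces differed by -1.66 ± 0.17. Avp, the hypothalamic hormone vasopressin, had -0.61 and -0.67 in the core and 0.64 and 0.65 in the penumbra. The regions moved in opposite directions, with a difference of -1.29 ± 0.05 that joined an ischemic difference of -0.88 to a healthy difference of 0.40.

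Both genes are on the list of thalamic and hypothalamic markers. Counting them, 2 of 23 tested members were called lower in the core, 5 passed at 1.5-fold and 10 had both core arrays below both penumbra arrays. Over all features, 0.281% passed as lower at 1.5-fold and 14.8% were separated downwards. Patj, a scaffold of cell polarity, had -0.25 and -0.26 in the core and 0.64 and 0.56 in the penumbra, and its 3 probes gave differences from -0.85 to -0.06 (mean -0.55). Its gap as given by the brightest probe lay in the ischemic pieces, at -0.86, with -0.01 between the healthy ones. Tnnt1, a slow troponin that marks thalamic neurons, had -0.16 and 0.32 in the core and 0.68 and 1.18 in the penumbra, a difference of -0.85 ± 0.01, from -0.46 between the ischemic and 0.39 between the healthy pieces. Zic1, a zinc finger transcription factor on both the thalamic and the meningeal list, had a difference of -0.76 ± 0.11. The list as a whole had a median of -0.13, and the hypothalamic peptide genes Oxt (-0.11), Pomc (-0.10) and Hcrt (-0.07) lay near 0. Whether the ischemic and healthy penumbra pieces held unequal amounts of thalamus was not tested.

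Mrgprf, an orphan G protein-coupled receptor on the list of meningeal fibroblast markers, was also lower in the core. It had log2 ratios of -0.76 and -0.96 in the core and 0.23 and 0.09 in the penumbra. Core arrays were all below 0 and penumbra arrays above it, with a difference of -1.02 ± 0.04 that fell under 1 log2 unit without core replicate 2 (-0.92) or penumbra replicate 3 (-0.95). The gap lay in the healthy pieces, where core exceeded penumbra by 0.96 ± 0.15, while the ischemic pieces differed by -0.06 ± 0.11. Col3a1, a fibrillar collagen chain, followed the same pattern with -0.55 and -0.67 in the core and 0.31 and 0.22 in the penumbra. Its difference was -0.88 ± 0.02, from 0.32 between the ischemic and 1.20 between the healthy pieces. Slc13a4, also on this list, had a difference of -0.77 ± 0.09, with -1.06 between the ischemic and -0.29 between the healthy pieces. Zic1 was like Slc13a4, with -1.12 between the ischemic and -0.36 between the healthy pieces. Over the list, the median was 0.20 between the ischemic and 0.62 between the healthy pieces, and the healthy difference was below 0 in 4 of 22. Of 22 meningeal fibroblast markers tested, 1 was called lower and 9 passed at 1.5-fold lower, against 0.281% of all features at 1.5-fold. Both core arrays lay below both penumbra arrays in 20 of the 22, against 14.8% of all features. The markers had a median difference of -0.50, with a median response of -0.13 in the core and 0.26 in the penumbra.

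Choroid plexus and ependymal markers differed as a group without a called member. All 16 tested markers had both core arrays below both penumbra arrays, against 14.8% of all features, and 9 passed at 1.5-fold, against 0.281%. The median difference of the markers was -0.60 (range -0.95 to -0.14). Their median response was -0.00 in the core and 0.58 in the penumbra. Kcne2, a potassium channel subunit of choroid epithelium, had log2 ratios of -0.08 and 0.12 in the core and 0.96 and 0.98 in the penumbra, a difference of -0.95 ± 0.12. Kl, which encodes Klotho, had -0.47 and -0.43 against 0.49 and 0.37, a difference of -0.88 ± 0.11. Sostdc1, a secreted antagonist of BMP signaling, had a difference of -0.86 ± 0.02. Ttr, the transthyretin that choroid plexus secretes, had 0.01 on each core array and 0.69 and 0.72 on the penumbra arrays, a difference of -0.69 ± 0.02. Levels in the core pieces were lower than in the penumbra pieces for all of these, by -4.35 in ischemic and -3.40 in healthy tissue for Kcne2, -3.81 and -2.93 for Kl, and -3.14 and -2.29 for Sostdc1. The level of Ttr itself was far lower in the core pieces than in the penumbra pieces, by -7.16 in ischemic and -6.46 in healthy tissue. In ischemic core it was well above background on 1 array only, so its values there rest on a signal near the floor, and processed signals put its difference of responses at -1.41. Kcne2 and Sostdc1 were also dim in the core pieces, though well above background on both arrays of each. Their ischemic and healthy core log2 levels were 6.68 and 6.66 for Kcne2 and 6.79 and 7.02 for Sostdc1. The lowest signals well above background on the core arrays were 6.00 to 6.14. Core ratios near 0 of such dim genes do not show that a response was absent. Over the alternatives, the difference of Sostdc1 ran from -1.22 to -0.81. The part that the amount of choroid plexus in each piece played in these differences was not tested.

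**Figure D4:**
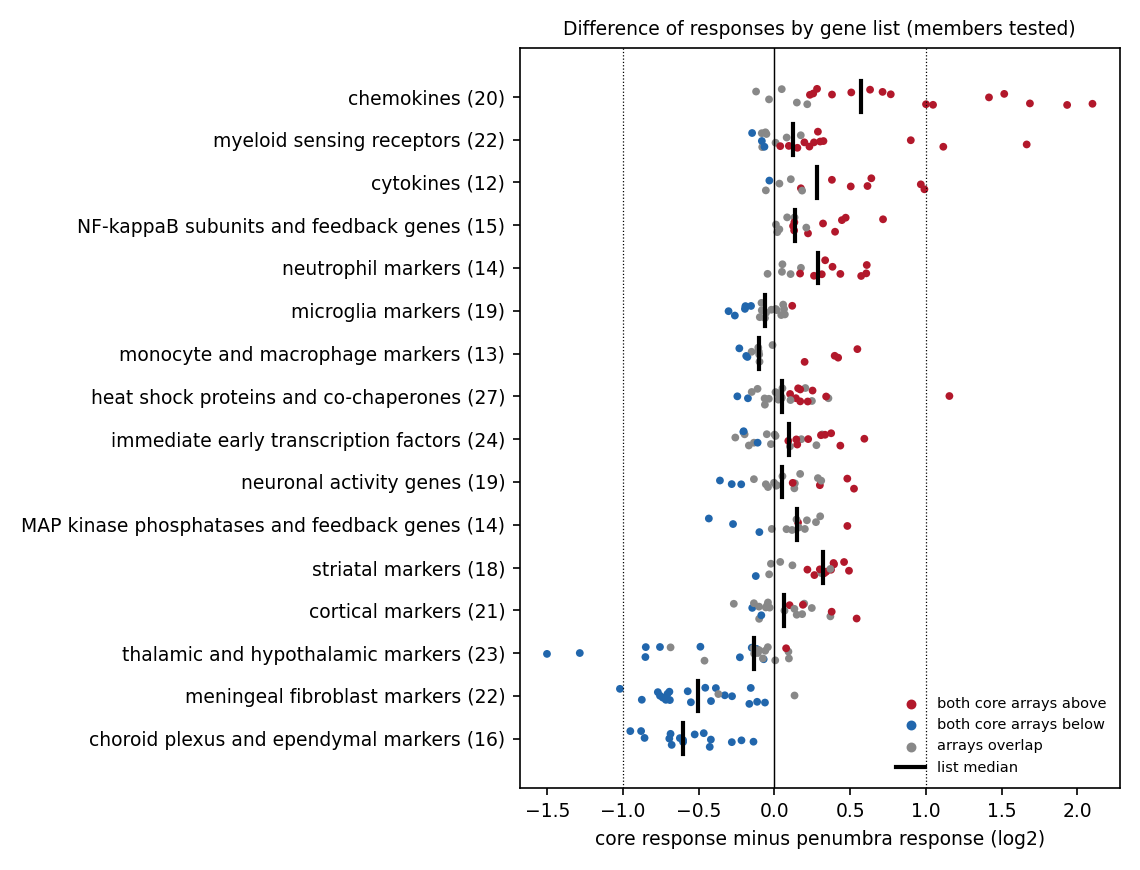
Core response minus penumbra response (log2) for each tested member of 16 gene lists, with the number of tested members in brackets; red and blue points have both core arrays above or below both penumbra arrays, grey points overlap, and black bars are list medians. Chemokines reach 2.10 with a median of 0.57, while choroid plexus and meningeal markers lie almost wholly to the left of 0 with medians of -0.60 and -0.50.

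Over the 71 features lower in the core at 1.5-fold, the ischemic difference was the larger in size in 59. The ischemic difference was below 0 in 62 of the 71 and the healthy difference in 51. For a feature lower in the core, a healthy difference below 0 makes the ischemic one larger by arithmetic. Those 51 therefore do not show in which pieces the gap lay. Among the 39 features that were higher, the healthy part was the larger in 23 and the ischemic part in 16. The healthy difference was below 0 in 29 of them and the ischemic difference in 4. Where both differences share a sign, the larger part is again fixed by arithmetic.

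Striatal markers differed slightly but together. Of 18 tested, 0 passed at either size, and the median difference was 0.32. Both core arrays lay above both penumbra arrays in 11 and below them in 1, against 15.7% and 14.8% of all features. Pde1b, a calcium-dependent phosphodiesterase of medium spiny neurons, had log2 ratios of -0.10 and 0.10 in the core and -0.30 and -0.47 in the penumbra, a difference of 0.39 ± 0.26. The dopamine receptors Drd1 and Drd2 had differences of 0.39 and 0.33. Penk, the enkephalin precursor, had a mean difference of 0.31 with an SD of 0.83, so its arrays overlapped. Striatal RNA was less abundant in the core pieces than in the penumbra pieces, with a median level difference of -1.35 between the ischemic and -1.67 between the healthy pieces. Cortical markers had a median difference of 0.07 with 0 of 21 passing at either size, and oligodendrocyte markers a median of 0.03 with 0 of 15.

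The features raised by ischemia were also compared between the regions. A feature was counted as raised in a region when its mean ratio was at least 2-fold and each array at least 1.5-fold. By that rule 76 of 24536 features were raised in the core (0.31%) and 60 of 24919 in the penumbra (0.241%), 45 of them in both. Of those 45, which were chosen for being raised in both, 38 had a difference within 0.5 log2, against 99.2% of all features. Their median difference was 0.10, and 2 were called, Ccl4 and Ccl3, against 0.0396% of all features called higher and 0.0198% called lower. The arrays of the regions were separated in 24 of the 45, against 15.7% of all features separated upwards and 14.8% downwards. Among the closest were Inhba, a subunit of activin, with ratios of 1.02 and 1.12 in the core and 1.01 and 1.13 in the penumbra, and Junb, an AP-1 subunit, with 1.31 and 1.39 against 1.33 and 1.35. Their differences were -0.00 ± 0.01 and 0.01 ± 0.04. Fosb, another AP-1 subunit, lay at -0.05 ± 0.22, the antiproliferative gene Btg2 at -0.02 ± 0.25 and the clock regulator Nfil3 at -0.09 ± 0.03. The 31 features raised in the core alone had a median difference of 0.48, and 6 of them were called. The 15 raised in the penumbra alone had a median of -0.36, and 2 were called. The sign of these last medians follows in part from how the features were chosen.

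Of 24 immediate early transcription factors, 1 passed at 1.5-fold. Ier2, a short-lived nuclear protein, had 0.94 and 1.22 in the core and 0.32 and 0.65 in the penumbra. Its difference was 0.59 ± 0.04, with 0.83 between the ischemic and 0.23 between the healthy pieces, but its other probe gave 0.15 and the mean over both 0.37. The list median was 0.10, with 11 members raised in the core and 10 in the penumbra, against 0.31% and 0.241% of all features. Neuronal activity genes had a median difference of 0.05 with 0 of 19 passing at either size. For phosphatases of MAP kinases and related feedback genes the median was 0.15, 0 of 14 passed, and Dusp6, the phosphatase of Erk, lay at 0.16 ± 0.09.

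Among neuropeptides, Cartpt, the precursor of the CART peptides, stood beside Avp. It had log2 ratios of -0.01 and -0.24 in the core and 0.83 and 0.70 in the penumbra, a difference of -0.89 ± 0.07. Its level was higher in the core pieces than in the penumbra pieces, by 0.57 in ischemic and 1.46 in healthy tissue. Adcyap1 encodes PACAP, the peptide named in the treatment protocol. It had 0.82 and 0.55 in the core and 0.39 and 0.18 in the penumbra. The regions were separated and all arrays positive, but the difference of 0.40 ± 0.04 missed both sizes. It lay in the ischemic pieces, at 0.38 ± 0.02, with the healthy pieces at -0.03 ± 0.02. The median over 20 neuropeptide genes was -0.01.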

How the data were processed

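RNA of ischemic and healthy core and penumbra was measured on 4 two-color arrays. The authors' scanner output, deposited as spot intensity per dye, was written by Agilent Feature Extraction 11.0.1.1 (file headers, submitters' processing notes). A deposited table of the whole series gave log10 ratios, which equalled those of the processed Cy5 over Cy3 signals to within 5e-06; its column medians were -0.0215, 0.00516, -0.0199 and -0.0115 for core 1, core 2, penumbra 3 and penumbra 4. Median signals lay between 182.5 and 213 in Cy3 and between 268 and 290.5 in Cy5, over local backgrounds of 64 to 66 and 70 to 71, and the number of arrays limits precision.

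Median signals were background-corrected with normexp (offset 50) and loess-normalized in limma 3.58.1 (R 4.3.3), turned to ischemic over healthy, and averaged per dye swap. Control spots and outlier spots (101 to 141 per array) were left out. Of 41174 probes, 23374 were named through RefSeq accessions (GRCm38.p6); the brightest probe stood for a gene. Ratios between pieces are single-channel log2 values, computed from the deposited intensity after loess and Aquantile, within each dye. Tables and plots used Python 3.11.15, pandas 2.3.3, numpy 2.4.6 and matplotlib 3.10.9, and the fits were tested on simulated data. With 1 slide there was no slide or scan batch to test.

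The members and the 34 gene lists (713 entries, 675 on the array) were chosen with earlier results of these data known. Named genes were all called genes with a symbol; per list up to 4 members with the largest difference among those passing at 1.5-fold, or the 2 brightest; the 8 largest and 8 smallest differences among genes raised in a region; and Adcyap1. Other list members are named as examples, chosen after their values were seen, as are Drd1, Drd2, Hspa1a, Hspa1b, Dnajb1, Ccl8, Cx3cl1, Tlr4, Oxt, Pomc and Hcrt. Not every named gene is printed. Alternatives were other background corrections, centring, filters, probe rules, calls and arrays left out.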

Additional observations from a re-analysis of the deposited data

Results flagged for a closer look

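Of the 13 called genes with a symbol, 7 had both core arrays on one side of 0 and both penumbra arrays on the other, so that ischemic tissue stood above healthy tissue in one region and below it in the other. The difference of responses was 1.93 log2 for Cxcl1, 1.67 for Gpr84, 1.52 for Ccl12 and 1.00 for Cxcl2, each above 0 in the core and below 0 in the penumbra. It was -1.50 for Prkcd, -1.29 for Avp and -1.02 for Mrgprf, each below 0 in the core and above 0 in the penumbra. None of these differences was tested across animals. The penumbra values of Cxcl2 (-0.20 and -0.06) and of Mrgprf (0.23 and 0.09) lay close to 0.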

How the results depend on the processing

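Over the alternatives run, the 13 called genes with a symbol kept their sign in all 142 values, and the 22 other named genes with a 1.5-fold difference kept theirs in 238. Of the 52 remaining named genes, 39, with differences from -0.17 to 0.31, changed sign at least once, as did the medians of 10 of 34 lists, all between -0.10 and 0.04. The 10 higher and 5 lower features became 93 and 86 with Agilent processed signals, 28 and 28 with a normexp offset of 0, 39 and 71 at 1.5-fold, and 2 and 0 in limma without a dye coefficient; the cause was not tested. Leaving out 1 array gave 12 to 17 higher and 8 to 23 lower. Both counts stayed within 1.5 times under median centring (9 and 5), spike-in scaling (9 and 6, a shift of 0.01 log2), no filter (10 and 5), measurement in all tissues (9 and 5), the mean over probes (9 and 5), the dye-matched rule (10 and 5) and limma with a dye coefficient (10 and 5). Calls of Cxcl2, Ccl7 and Mrgprf ended under settings given with those genes, and that of Cxcl2 also where a gene had to be measured in all tissues. No paired analysis was possible because the core arrays are numbered 1 and 2 and the penumbra arrays 3 and 4, so the regions share no number; arrays were matched by dye instead. Signals near background limit the size of Cxcl2, Il1rn, Il6 and Tnf, whose healthy core was not well above background on at least 1 array, and of Ttr, where this held for ischemic core. Other called genes also had larger differences with processed signals: Ccl4 2.89, Cxcl1 2.57, Gpr84 2.35, Ccl2 1.89, Ccl12 1.84, Ccl3 1.82 and Ccl7 1.56. That of Hspb1 did not grow (1.15). The difference of Csf3, a dim gene that was not called, grew from 0.97 to 2.86 with processed signals. The SDs given with the differences do not cover this spread between settings.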

Other observations

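The genes in this and the following paragraphs were chosen after their values were seen. Mest, an imprinted gene of the hydrolase family, was above 0 on every array and higher in the penumbra, with log2 ratios of 0.90 and 0.91 in the core and 1.57 and 1.82 in the penumbra, a difference of -0.79 ± 0.17. Agt, the angiotensin precursor made by astrocytes, had -0.25 on each core array and 0.58 and 0.66 in the penumbra. Its difference of -0.87 ± 0.05 came with -1.42 between the ischemic and -0.54 between the healthy pieces. Slc2a12, a glucose transporter, had a difference of -0.93 ± 0.28, and Nrp2, a receptor for semaphorins and vascular growth factors, -0.67 ± 0.11. In these genes both penumbra arrays lay above 0.5 log2.

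Other genes that were higher in the core at 1.5-fold and belong to no list were Slc15a3, a histidine and peptide transporter of endosomes in myeloid cells, at 0.80 ± 0.20, and Cd244a, a receptor of natural killer cells, at 0.69 ± 0.17. Pparg, a nuclear receptor that represses inflammatory genes, had 0.53 and 0.34 in the core and -0.08 and -0.26 in the penumbra, a difference of 0.60 ± 0.01. Its level was higher in the core pieces in ischemic (1.36) and healthy tissue (0.75) alike. Mycn, a transcription factor of the Myc family, had 1.40 and 0.71 in the core and 0.70 and 0.16 in the penumbra. Its difference was 0.63 ± 0.11, and the lower core array barely exceeded the higher penumbra array.

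Among genes on no list, and lower in the core, Wfdc2, a secreted protease inhibitor of epithelia, had a difference of -0.65 ± 0.05, and Tekt1 and Spaca9, which belong to motile cilia and sperm tails, had -0.64 ± 0.01 and -0.63 ± 0.14.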
